A study of Schizosaccharomyces pombe with 3 samples.

Results

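The cytosolic heat shock chaperone genes of the fission yeast Schizosaccharomyces pombe were examined for RNA polymerase II (Pol II) and for Med7, a subunit of the Mediator complex. The 9 genes were taken by symbol or synonym from a list of the main cytosolic folding machines, by a rule that uses no measured value but was made with earlier results of these data known, and all 9 were found among 5113 annotated protein-coding nuclear genes. Chromatin immunoprecipitation followed by sequencing had been carried out on strain 972 h- cells in log phase, grown in YEA medium with glucose and given no treatment, so these are levels without a heat shock. For the bead control, untagged chromatin was put on beads without antibody. For the Pol II library, chromatin without a tag was taken down on Protein G beads with CTD(4H8), which binds the C-terminal domain of the polymerase. The Med7 library came from TAP-Med7 cells, whose Med7 carries a TAP tag, on IgG beads. The control thus had no TAP tag and was not on IgG beads, unlike the chromatin of the Med7 library. Each of the 3 kinds of chromatin has 1 library, so no difference has a replicate check and no p-value is given.

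Chaperones of this group keep proteins from clumping and help them fold. Hsp70 proteins bind exposed stretches of unfolded chains, J-domain proteins hand them their substrates, and Sti1 links Hsp70 to Hsp90, which completes the folding of kinases and other regulators. Hsp104 pulls proteins back out of aggregates together with Hsp70, and small heat shock proteins hold unfolded proteins in a soluble form. Heat shock factor, Hsf1 in fission yeast, binds heat shock elements, which are short GAA units in alternating orientation. Mediator joins such activators to Pol II at the start of transcription.

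Both arrangements of a neighbouring pair of these units, GAANNTTC and TTCNNGAA, were searched on both strands in the 250 bp upstream of each transcript start. A pair was found for 7 of the 9 genes and in 16.7% of 5112 promoters. Those of sks2 and hsp104 did not hold these letters. A run of 3 alternating units, GAANNTTCNNGAA or TTCNNGAANNTTC, was found in 0.411% of promoters and in 2 of the 9, ssa1 and ssa2. A second motif, AGGGTTAGGGTT, is the longest stretch shared by the promoters of ssa1, ssa2 and hsp90, a trio chosen after the promoters had been read. It occurred in these 3 of the 9 genes and in 0.391% of all promoters, in each of the 3 just upstream of the GAA units nearest to the start. A match is a description of the letters and not a measured binding site. The 30-base stretches below show the spacing of the motifs, 5′ to 3′ on the strand of the gene, with both motifs in capitals. They lie in assembly ASM294v3 at chrI:2298010-2298039 (minus strand, ssa1), chrIII:2056967-2056996 (plus, ssa2), chrI:3891182-3891211 (minus, hsp90), chrIII:1263650-1263679 (minus, sti1), chrI:4469141-4469170 (minus, wos2) and chrII:2661067-2661096 (minus, hsp16).
ssa1: cgAGGGTTAGGGTTggtGAAGGTTCGAGAA
ssa2: gAGGGTTAGGGTTttggGAAACTTCGAGAA
hsp90: AGGGTTAGGGTTttgGAATGTTCgagttgc
sti1: tttaaacaaaaGAATCTTCgttattctgga
wos2: ttgagcgtatgTTCTAGAAaataccgtacc
hsp16: aacgtttacgaGAAAATTCgagtcatcgta
The GAA units shown began 58 bp upstream of the transcript start in ssa1, 59 bp in ssa2 and 57 bp in hsp90, but 93 bp upstream in both sti1 and hsp16. The pair shown for wos2 began 70 bp upstream, and a second one 16 bp upstream. That of mas5 was the most distant, 224 bp upstream.

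The 3 promoters below are given over 250 bases, ending at the base before the transcript start, to set an Hsp70 and the Hsp90 promoter beside that of hsp104, which matched neither motif. They lie at chrI:2297965-2298214 (minus, ssa1), chrI:3891140-3891389 (minus, hsp90) and chrII:3615270-3615519 (minus, hsp104), with the same capitals.
ssa1: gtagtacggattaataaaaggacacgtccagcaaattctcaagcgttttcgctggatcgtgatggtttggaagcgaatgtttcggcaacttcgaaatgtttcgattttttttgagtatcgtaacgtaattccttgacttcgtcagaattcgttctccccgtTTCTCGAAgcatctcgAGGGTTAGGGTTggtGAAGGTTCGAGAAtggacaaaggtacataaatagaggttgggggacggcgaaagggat
hsp90: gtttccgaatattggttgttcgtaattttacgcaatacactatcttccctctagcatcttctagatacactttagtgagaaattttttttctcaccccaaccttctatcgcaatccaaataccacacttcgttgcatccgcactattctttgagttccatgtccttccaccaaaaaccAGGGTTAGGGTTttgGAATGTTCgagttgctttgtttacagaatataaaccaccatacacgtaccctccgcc
hsp104: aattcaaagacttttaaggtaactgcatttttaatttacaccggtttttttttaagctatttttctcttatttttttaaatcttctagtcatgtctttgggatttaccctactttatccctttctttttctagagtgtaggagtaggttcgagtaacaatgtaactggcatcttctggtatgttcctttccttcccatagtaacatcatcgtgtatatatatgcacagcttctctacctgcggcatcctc
The ssa1 stretch held a further pair, TTCTCGAA, which began 89 bp upstream. The TATA letters TATAAA, searched on both strands, were found for 4 of the 9 genes and in 44.4% of all promoters. In hsp90 and hsp16 they began 29 and 33 bp upstream. In sti1 and mas5 they were on the opposite strand, 129 and 139 bp upstream. The letters TGACGT, also on either strand, which occurred in 5.52% of promoters, were found for ssa2 and wos2.

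Reads were counted over each annotated transcript (the gene body) and in a promoter window from 500 bp upstream to 100 bp downstream of its start. Counts were scaled to RPM, the usual unit for equal depth, by the nuclear reads outside the ribosomal DNA repeats. There were 630825 such reads for the control, 1687058 for Pol II and 696101 for Med7. Folds below divide the RPM of a ChIP library by that of the control. The range in parentheses after a fold is its exact conditional binomial 95% interval. It covers counting error alone, because PCR reads that carry no molecular identifiers are not independent molecules. A window was called high when its fold reached 2 and the interval lay above 1, and low when its fold was 0.5 at most and the interval lay under 1. Every member passed the minimum of 20 reads and of 90% unique 45-base starts in both windows. The Med7 library differed from the others in its mitochondrial reads, 23.8% of those listed against 6.84% in the control, and these do not enter the scaling.

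Pol II was above the control over the bodies of all 9 genes. The gene bodies of 8 of the 9 were called high and 0 low, where 6.8% of 4967 measured genes were high and 11.6% low. Their median log2 fold was 1.94, against -0.45 over all genes measured. When the libraries were scaled by their median 1 kb bin instead, all Pol II folds moved up by 0.49 on the log2 scale, 562 genes were high and 70 low in place of 338 and 578, and all 9 members were high. Together the 9 bodies, 18.645 kb in length, held 16251 Pol II reads, or 0.963% of the scaled reads (exact binomial 95% interval 0.949% to 0.978%). Of these reads 4604 came from ssa2 and 4190 from hsp90, so sums over the 9 genes weigh most on this pair. The control had 1135 reads over the 9 bodies, or 0.180% (0.170% to 0.191%), and the Med7 library 1011 reads, or 0.145% (0.136% to 0.154%). The Pol II share thus lay well above both others, and the Med7 share lay below that of the control.

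**Figure D1:**
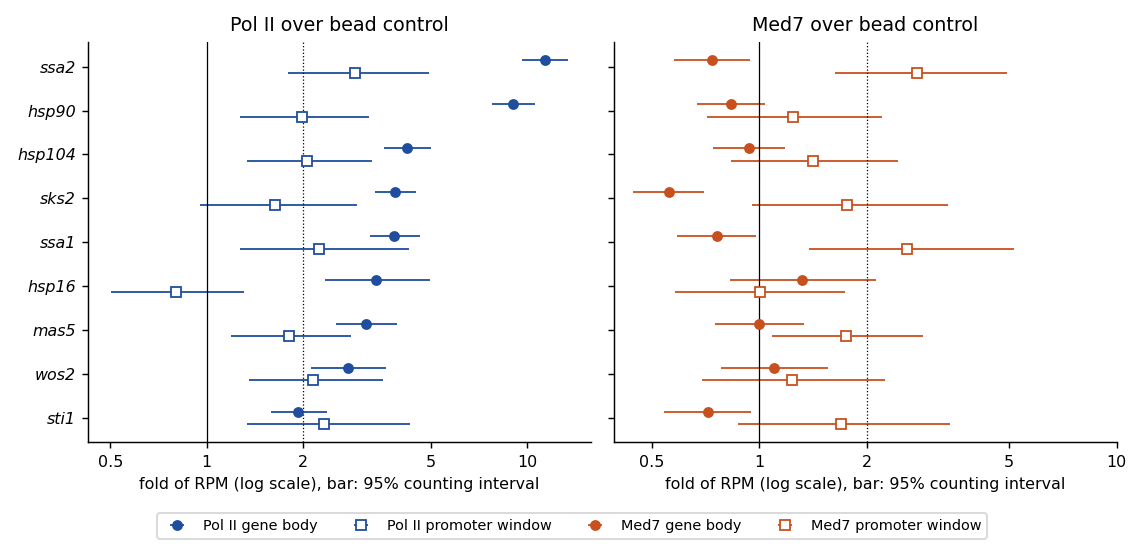
Fold of RPM over the bead control (x axis, log scale) for each of the 9 genes, with Pol II at left and Med7 at right, filled circles for gene bodies, open squares for promoter windows and bars for the 95% counting interval. The Pol II gene bodies run from 1.93 for sti1 to 11.3 for ssa2, whereas the Med7 gene bodies lie between 0.559 and 1.32.

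The Hsp70 genes among the members were all called high, led by ssa2. The gene ssa2 (SPCC1739.13, chrIII:2057043-2059331, plus strand, 1 exon) encodes a cytosolic Hsp70. Its body held 4604 Pol II reads against 152 in the control and 124 in the Med7 library, which gave a Pol II fold of 11.3 (9.63 to 13.4), number 8 of 4967 genes. With reads at the same position and strand collapsed to 1, the fold of ssa2 was 7.54. Its close relative ssa1 (SPAC13G7.02C, chrI:2295580-2297964, minus, 1 exon) had 1401 Pol II, 136 control and 114 Med7 reads, a Pol II fold of 3.85 (3.23 to 4.63). The intervals of this pair did not overlap. Of the starts in each of these bodies 99.5% were unique 45-mers, and reads that begin at repeated 45-mers are absent from the files. The third Hsp70, sks2 (SPBC1709.05, chrII:1106396-1108511, plus, 1 exon), works at the ribosome on new protein chains. It had 2130 Pol II, 206 control and 127 Med7 reads, a Pol II fold of 3.87 (3.35 to 4.48).

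The control itself stood out at sks2. Per kb of transcript its control level was 154 RPM, number 6 of 4967 genes, where the median gene had 86.1. The Pol II level of sks2 was 597 RPM per kb, above the 348 of ssa1, although their folds over the control did not differ beyond counting error. The control levels of ssa1 and ssa2 were 90.4 and 105 RPM per kb. The folds of sks2 divide by its high control level. Its Med7 level was 86.2 RPM per kb, where the median gene had 79.6. Why the control level of sks2 was high was not tested.

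The gene hsp90 and the helper gene wos2 were also high in the Pol II library, while the helper gene sti1 just missed the call. The gene hsp90 (synonyms git10 and swo1, SPAC926.04C, chrI:3888558-3891139, minus, 1 exon) had 4190 Pol II reads against 174 in the control and 160 in the Med7 library. Its Pol II fold was 9.0 (7.74 to 10.5), number 14 of all genes measured, and 6.24 with duplicates collapsed. The ssa2 and hsp90 intervals overlapped each other and lay above those of the other 7 members. The gene wos2 (SPAC9E9.13, chrI:4467887-4469089, minus, 2 exons) encodes the p23 co-chaperone that binds Hsp90 in its closed state. It had 478 Pol II, 65 control and 79 Med7 reads, a Pol II fold of 2.75 (2.12 to 3.62). The linker gene sti1 (SPCC645.14C, chrIII:1261338-1263575, minus, 1 exon) had 619 Pol II, 120 control and 95 Med7 reads. Its Pol II fold of 1.93 (1.58 to 2.37) was the lowest of the 9, yet still number 363 of 4967, and became 2.71 with median-bin scaling.

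A J-domain protein, the disaggregase and a small heat shock protein complete the list. The gene mas5 (SPBC1734.11, chrII:1081375-1083347, plus, 1 exon) encodes the main cytosolic J-domain partner of Hsp70, known in fission yeast to hold Hsf1 in check together with Ssa2. It had 813 Pol II, 97 control and 107 Med7 reads, a Pol II fold of 3.13 (2.54 to 3.91). The disaggregase gene hsp104 (SPBC16D10.08C, chrII:3612265-3615269, minus, 1 exon) had 1719 Pol II, 152 control and 157 Med7 reads, a Pol II fold of 4.23 (3.58 to 5.03). The small heat shock protein gene hsp16 (SPBC3E7.02C, chrII:2660139-2660992, minus, 1 exon) had 297 Pol II, 33 control and 48 Med7 reads, a Pol II fold of 3.37 (2.34 to 4.98). Below hsp90, neighbours in the order of fold (hsp104, sks2, ssa1, hsp16, mas5, wos2) had overlapping intervals.

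Per length, the order of the Pol II levels changed little. The level was 1192 RPM per kb at ssa2, 962 at hsp90 and 597 at sks2. It was 348 at ssa1, 339 at hsp104, 244 at mas5, 236 at wos2, 206 at hsp16 and 164 at sti1, and the median gene had 61.2. Even sti1, the lowest, was number 390 of 4967 by this level. The Med7 levels ran only from 61.0 RPM per kb at sti1 to 94.3 at wos2, on both sides of the median gene at 79.6.

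**Figure D2:**
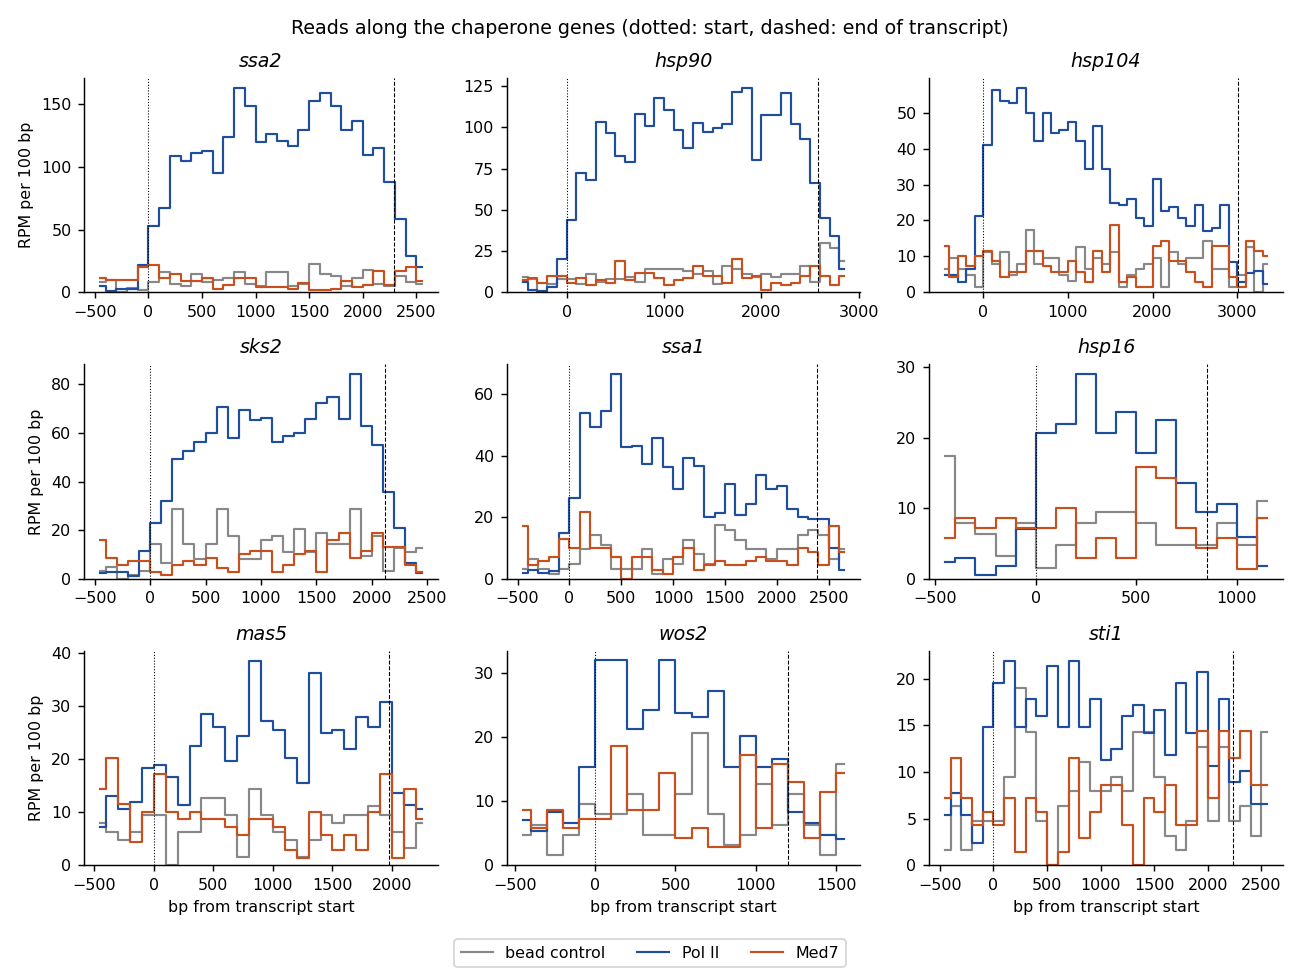
RPM per 100 bp bin (y axis, different range in each panel) against distance from the transcript start in bp (x axis) for the 9 genes in the bead control, Pol II and Med7 libraries, with the start dotted and the end dashed. The Pol II bins reach 163 RPM in ssa2 and 124 in hsp90, while hsp104 and ssa1 are highest at 400 to 499 bp and lower towards the end.

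The reads did not carry strand information about the RNA, so overlapping transcripts share a signal. Noncoding RNAs are annotated across several members. In ssa1 the antisense SPNCRNA.3030 covers 1934 bp, and 12.8% of the transcript is shared with no other annotated gene. On these 306 bp the Pol II fold of ssa1 was 2.24 (1.46 to 3.58), against 3.85 over the whole. In hsp104 SPNCRNA.6202 covers 1477 bp, and over the 1192 unshared bp the fold was 2.65 (2.01 to 3.54). Both stayed above the 2-fold rule. In both genes most of the unshared bases lie at the 3′ end, where the fold of the whole transcript was also lower (2.35 for ssa1 and 2.68 for hsp104 in the 3′ segment described below). The protein-coding neighbours shared little of a transcript: ppe1 covers 27 bp of ssa2 and had a Pol II body fold of 0.932 (0.785 to 1.11), and alg12 covers 32 bp of mas5 and had 0.796. No other annotated gene overlaps hsp90 or hsp16.

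Along the transcript, Pol II was lower towards the 3′ end on ssa1 and hsp104 relative to the control. Each transcript was divided into 3 segments of equal length. The Pol II fold of ssa1 was 6.32 in the 5′ segment (625 reads against 37), 3.62 in the middle and 2.35 in the 3′ segment (340 against 54). In hsp104 the fold was 5.34 (829 against 58), 4.48 and 2.68 (351 against 49). The 5′ over 3′ ratio of these folds was 2.68 (1.69 to 4.28) for ssa1 and 1.99 (1.31 to 3.03) for hsp104, numbers 34 and 126 of 4810 genes. The interval lay above 1 for these 2 members, where 2.43% of genes were above 1 and 17.3% below. The gene median was 0.806. With duplicates collapsed the ratios were 2.57 (1.57 to 4.25) and 1.77 (1.14 to 2.74).

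On the other 7 members this ratio could not be told from 1. The most strongly occupied genes were nearly level: ssa2 had Pol II folds of 10.4, 12.4 and 11.0 in the successive segments, and hsp90 had 10.4, 7.95 and 9.23. In sks2 the folds were 3.04, 4.29 and 4.32, a ratio of 0.704 (0.491 to 1.01). Over the 9 genes pooled, the folds were 5.50, 5.40 and 5.18, so the slopes of ssa1 and hsp104 are not visible in the sum. This sum of reads weighs most on ssa2 and hsp90, which held the most Pol II reads. Past the transcript end, in the next 300 bp, the pooled Pol II fold was 1.75 (1.47 to 2.10) where the gene median was 0.908. There ssa2 still had 4.42 (2.65 to 7.89), and hsp104 had 0.816 (0.385 to 1.84).

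**Figure D3:**
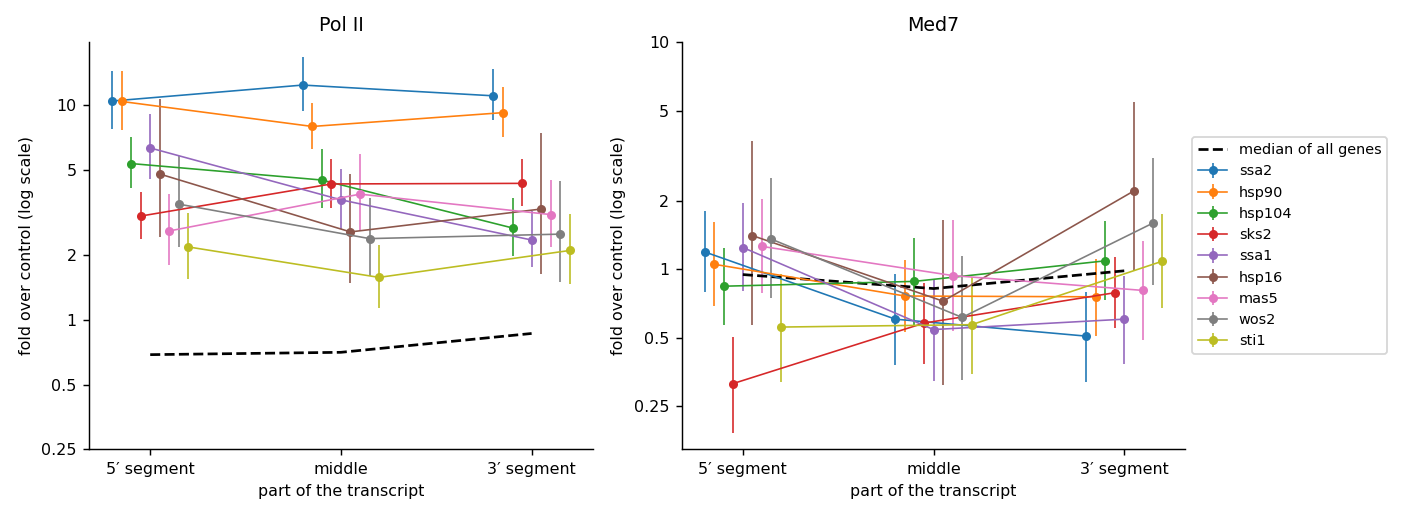
Fold over the bead control (y axis, log scale) in the 3 equal segments of each transcript (x axis), Pol II at left and Med7 at right, with bars for the 95% counting interval and a dashed line for the median of all genes. The Pol II lines of ssa1 (6.32 to 2.35) and hsp104 (5.34 to 2.68) slope down, and the Med7 value of sks2 in the 5′ segment, 0.315, lies lowest.

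In the promoter window, Pol II was called high at 5 of the 9 genes and low at 0, where 4.35% of 4944 promoters were high and 14% low. With median-bin scaling 8 of the 9 were high, and 529 of all promoters were high and 130 low in place of 215 and 690. The median log2 fold of the 9 was 1.01, against -0.41 over all promoters. The highest was ssa2 with 147 Pol II reads against 19, a fold of 2.89 (1.79 to 4.94). The others called were sti1 at 2.32 (1.34 to 4.31), ssa1 at 2.24 (1.27 to 4.28), wos2 at 2.14 (1.35 to 3.54) and hsp104 at 2.05 (1.33 to 3.28). With duplicates collapsed hsp104 had 1.81 and wos2 1.87, and both lost the call, while hsp90 gained it with 2.08 (1.28 to 3.55). Annotated noncoding RNAs span all 600 bp of the ssa1, ssa2 and hsp104 windows (SPNCRNA.811, SPNCRNA.7608 and SPNCRNA.6202). In the sti1 window SPNCRNA.1182 covers 321 bp. The ssa2 window also takes in 527 bp of the upstream gene ppe1. The source of the signal in these windows cannot be told apart. The promoter window of wos2 shares 413 bp with the transcript of the divergent gene vps24. The vps24 body had a Pol II fold of 1.27 (0.922 to 1.79). Its promoter window, with 2.94, lies largely over the wos2 transcript, so the source of the wos2 signal cannot be told apart. The genes hsp90 at 1.98 (1.27 to 3.20) and mas5 at 1.80 (1.19 to 2.81) fell short of the 2-fold rule. The hsp90 promoter was also called high with ends not moved (2.41), in a window from 250 bp upstream to 50 bp downstream (2.16) and with median-bin scaling (2.78), so its call depends on these choices. The same holds for sks2, at 1.63 (0.951 to 2.94), which was called with ends not moved (2.40) and with median-bin scaling (2.29). With median-bin scaling mas5 was called too (2.53).

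The hsp16 promoter had the lowest Pol II fold of the 9. It held 60 Pol II reads against 28 in the control, a fold of 0.801 (0.504 to 1.30), although the body of the gene was high. This interval overlaps those of sks2, mas5, ssa1 and hsp90, and in the narrower window hsp16 had 1.23 (0.594 to 2.81). In the outer 250 bp of the window it held 9 Pol II reads against 18, a fold of 0.187 (0.074 to 0.438). Pooled over the 9 genes in bins of 100 bp, the Pol II fold was 0.690 at 500 to 401 bp upstream, 2.96 in the last 100 bp before the start, 3.99 in the first 100 bp of the transcript and 5.62 in the next. A promoter window therefore includes part of the polymerase on the transcript itself.

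Med7 reached the high call at the promoters of ssa1 and ssa2 and over none of the 9 gene bodies. It was called high at 2 of the 9 promoters and low at 0, where 14.1% of 4943 promoters were high and 0.263% low, which for so few genes is not far from the background. The median log2 fold of the 9 was 0.74, against 0.44 over all promoters. The ssa2 promoter had 58 Med7 reads against 19, a fold of 2.77 (1.62 to 4.92), number 155 of 4943. The ssa1 promoter had 40 against 14, a fold of 2.59 (1.38 to 5.15), number 198. The window of ssa2 takes in 527 bp of the upstream gene ppe1 on the same strand.

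Windows nearer to the start held fewer reads. Between 250 bp and 1 bp upstream, ssa2 had 24 Med7 reads against 3 control reads, a fold of 7.25 (2.20 to 37.6), and ssa1 had 2.90 (1.02 to 10.1). Over a window from 250 bp upstream to 50 bp downstream the folds were 6.16 (2.40 to 20.2) for ssa2 and 3.62 (1.32 to 12.4) for ssa1, and 7 members had enough reads. When the 5′ ends of reads were not moved towards the fragment centre, ssa2 had 1.89 and lost its call, sks2 had 2.27 and gained one, and ssa1 had 2.11. Pooled over the 9 genes in bins of 100 bp, the Med7 fold was 3.02 (1.67 to 5.79) at 300 to 201 bp upstream, from 50 reads against 15. The nearer bins had 1.85 (1.09 to 3.24) and 1.84 (1.18 to 2.93), which overlap it, and more Med7 reads but also more control reads lay at 500 to 401 bp (70 against 39), so these bins give no position for Med7. Between 250 bp and 1 bp upstream the pooled fold was 1.84 (1.35 to 2.54), and the gene median there was 1.60.

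The other 7 promoters gave no Med7 call. The folds were 1.76 (0.952 to 3.37) for sks2, 1.75 (1.09 to 2.87) for mas5, 1.69 (0.873 to 3.41) for sti1 and 1.41 (0.834 to 2.44) for hsp104. They were 1.25 (0.714 to 2.20) for hsp90, 1.24 (0.689 to 2.25) for wos2 and 1.00 (0.582 to 1.74) for hsp16. The hsp90 gene thus combined the second highest Pol II body fold of the group with 33 Med7 promoter reads against 24 in the control. The hsp90 interval reaches above 2-fold, and that of hsp16 does not.

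**Figure D4:**
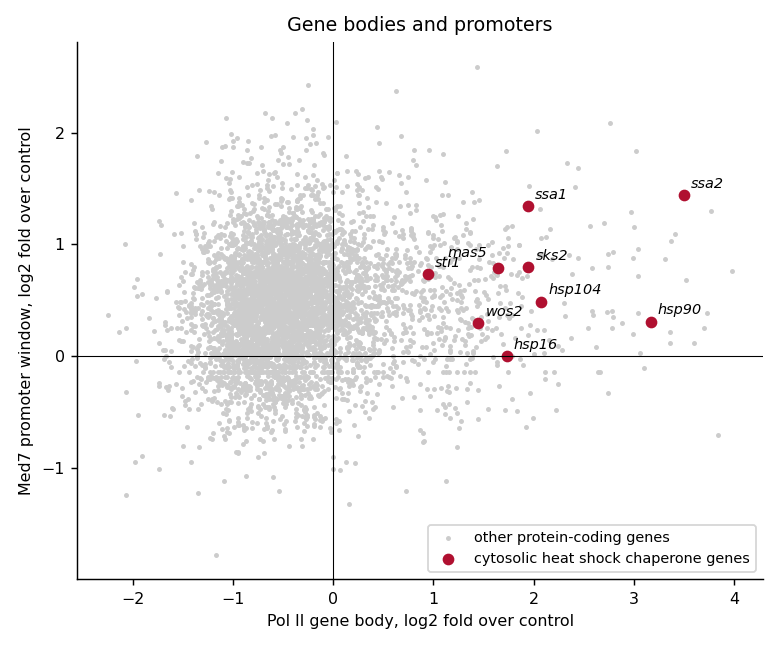
Log2 fold of Pol II over the gene body (x axis) against log2 fold of Med7 in the promoter window (y axis) for the protein-coding genes measured in both, with the 9 chaperone genes in red. The genes ssa2 and ssa1 lie high on both axes, while hsp90 is far to the right with a Med7 fold of 1.25 and hsp16 sits at 1.00.

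Over the gene bodies Med7 was called neither high nor low at any of the 9, where 0.544% of 4962 genes were high and 0.645% low. The median log2 fold was -0.26, against -0.11 over all genes. The lowest was sks2 at 0.559 (0.444 to 0.700), number 4884 of 4962. This is the gene with the high control level, and with a 1.5-fold rule it was called low. In its 5′ segment sks2 had 25 Med7 reads against 72, a fold of 0.315 (0.191 to 0.502). The folds of sti1 at 0.717 (0.542 to 0.947), ssa2 at 0.739 (0.578 to 0.943) and ssa1 at 0.760 (0.587 to 0.982) had intervals under 1. That of hsp90 was 0.833 (0.668 to 1.04), hsp104 0.936 and mas5 1.00 (0.752 to 1.33). The highest were wos2 at 1.10 (0.783 to 1.55) and hsp16 at 1.32 (0.829 to 2.12). Without shared bases wos2 had 1.69, and over its coding span alone hsp16 had 0.725.

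Relative to the control, Med7 on ssa1 and ssa2 was lower in the 3′ segment than in the 5′ segment. In the 5′ segment the Med7 fold was 1.19 (0.793 to 1.81) for ssa2 and 1.25 (0.802 to 1.96) for ssa1, which could not be told from 1. In the 3′ segment it was 0.509 (0.319 to 0.798) and 0.604 (0.385 to 0.938). The 5′ over 3′ ratio of the Med7 folds was 2.34 (1.26 to 4.39) for ssa2 and 2.06 (1.09 to 3.93) for ssa1, and 0.400 (0.215 to 0.729) for sks2. Over 4624 genes the median was 0.965, with the interval above 1 in 4.71% and below 1 in 6.6%. The other 6 members had intervals that include 1.

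The 9 genes were set beside other chaperone genes. Of 24 matched genes on a list of Hsp70 and Hsp90 partners and heat shock regulators, 23 were measured over the body. The list is broad and also holds hsp20, hsp3101 to hsp3105, san1, ubr1 and ubi4. Pol II was high at 3 of the 23 and low at 3, where 6.8% of all genes were high and 11.6% low. Their median log2 fold was -0.03. The high ones were psi1, a J-domain protein gene, at 3.02 (2.46 to 3.73), pss1, the Hsp110 exchange factor gene, at 2.79 (2.38 to 3.28), and aha1, which speeds up Hsp90, at 2.24 (1.82 to 2.79). The low ones were git7 at 0.496, hsp3105 at 0.397 and ppt1 at 0.329. In fission yeast ppt1 is annotated as a polyprenyltransferase of coenzyme Q synthesis and not as a chaperone partner. The gene of the regulator itself, hsf1, had a Pol II body fold of 1.01. The Hsp70 gene ssz1, which is on this list, had 1.03 (0.844 to 1.27) and was not called. The body of the polyubiquitin gene ubi4 was not measured, since 22.8% of its starts were unique.

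Pol II was also high at 4 of 9 mitochondrial and endoplasmic reticulum chaperone genes, where 6.8% of all genes were high and 11.6% low. Their median log2 fold was 0.77. The highest was bip1, the Hsp70 of the endoplasmic reticulum, at 5.11 (4.38 to 5.99). The mitochondrial genes mcp60, ssc1 and hsp10, which encode the chaperonin, Hsp70 and co-chaperonin of that organelle, had 2.75, 2.26 and 2.20, and the lowest, the exchange factor gene mge1, had 0.718. None of the 8 genes of the cytosolic chaperonin, which folds actin and tubulin, was called in either direction. For so few genes this is not far from the shares over all genes. The chaperonin folds ran from 0.599 at cct7 to 1.01 at cct1, with a median log2 fold of -0.30, against -0.45 over all genes. These lie under all 9 heat shock genes, whose lowest was 1.93.

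**Figure D5:**
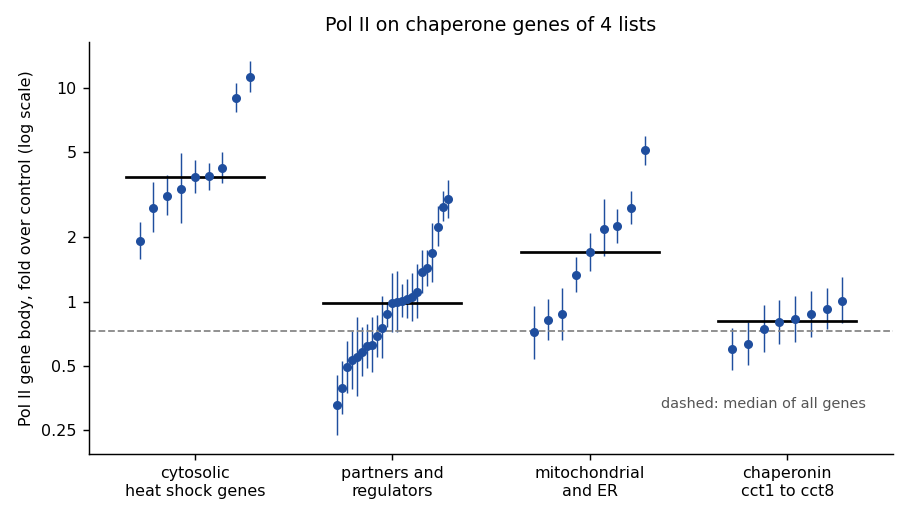
Pol II gene body fold over the bead control (y axis, log scale) for the 9 heat shock genes and 3 further chaperone lists (x axis), 1 point per measured gene with its 95% counting interval, a bar for the list median and a dashed line for the median of all genes. The cytosolic chaperonin genes run from 0.599 to 1.01, below the 1.93 of the lowest heat shock gene.

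At the promoters of these other lists Med7 followed no such order, where 14.1% of all promoters were high. It was called high at 2 of 23 partner promoters, fes1, an Hsp70 exchange factor gene, at 3.10 (1.84 to 5.48) and san1, a ubiquitin ligase gene for misfolded proteins, at 2.19 (1.34 to 3.69), and the lowest was ubr1 at 0.594. Among the chaperonin genes 2 of 7 were high, cct6 at 2.98 (1.61 to 5.86) and cct4 at 2.27. Among the organelle genes 1 of 8 was high, the calnexin gene cnx1 at 2.47 (1.41 to 4.50). The median log2 folds were 0.32, 0.51 and 0.75, against 0.74 for the 9 heat shock genes. At the promoters Pol II was low at 4 of 23 genes on the partner list and high at 1, where 14% of all promoters were low and 4.35% high. The low ones were ppt1 at 0.396, cns1 at 0.322, bag102 at 0.483 and hsp3104 at 0.476, and the high one was ubi4 with 2.13. The promoter of cct2 was low at 0.438, and among bodies Med7 was low at ssz1, a ribosome-bound Hsp70 gene, with 0.443.

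Likeness was measured as the distance between genes in the plane of log2 Pol II body fold and log2 Med7 promoter fold, over 4894 genes measured in both and 3 libraries. The genes nearest to ssa2 were pgk1 and gpm1, both of glycolysis, at distances of 0.306 and 0.358. Their Pol II folds were 13.6 and 10.7 and their Med7 promoter folds 2.54 and 2.19. Nearest to hsp90 were rds1 at 0.149 and pil1, an eisosome gene, at 0.204, with Pol II folds of 8.26 and 7.98 and Med7 folds of 1.32 and 1.16. Nearest to hsp16 were ght2, a hexose transporter gene, at 0.0525 and the ribosomal protein gene rpl31 at 0.113, with Pol II folds of 3.45 and 3.14.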

How the data were processed

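The authors deposited 1 list of aligned reads per library, giving for each read its chromosome, start, end and strand, without any count, score or normalisation. Per the submitters' processing notes Bowtie 0.12.7 was used; its role is not given in the sources used here, nor is a genome build. Checked on the reads, 0 of those spanning 45 bases began at a repeated 45-mer of ASM294v3, against 147, 306 and 151 (control, Pol II, Med7) after a move of 1 base, so the starts were read as 1-based and unique.

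Reads were counted at the 5′ end moved to the fragment centre (by 82, 72 and 67 bp), estimated from strand cross-correlations of 0.0033, 0.0647 and 0.0045, which is weak for control and Med7. The libraries held 50.3, 135 and 55.5 nuclear reads per kb. Duplicates, 12.9%, 17.0% and 16.4% of nuclear reads, were kept. Log2 folds used a pseudocount of 0.5 reads. Ranks count from the highest value. Segment ratios are exact conditional odds ratios. Transcripts and sequences are RefSeq's for ASM294v3. Of the other lists, caj1, jjj1 and lhs1 had no match. All members, genes of the other lists past the fold rule, the highest and lowest of each list, overlapping neighbours and the 2 genes nearest to ssa2, hsp90 and hsp16 are named. The members and lists were chosen with earlier results of these data known. Alternatives were another scaling, duplicates collapsed, ends not moved, no read minimum, a 1.5-fold rule, coding spans, unshared bases and a narrower promoter. Counting and folds were tested on simulated data. Scripts ran on scipy 1.17.1, pandas 2.3.3, numpy 2.4.6, matplotlib 3.10.9 and Python 3.11.15.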

Additional observations from a re-analysis of the deposited data

Results flagged for a closer look

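The Med7 library held 23.8% of its listed reads on the mitochondrial chromosome, which no comparison of the chaperone genes uses, against 6.84% in the bead control and 7.73% in the Pol II library. With 1 library per group the difference has no replicate check.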

How the results depend on the processing

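No paired analysis was possible because each group has 1 library. No called value changed its direction under the alternatives run. Scaling by the median 1 kb bin moved the median log2 Pol II body fold of the 9 genes from 1.94 to 2.43 and raised the members called high at promoters from 5 to 8. That number was 4 with duplicates collapsed, 6 in the narrower window and 7 with ends not moved. With a 1.5-fold rule 1 member (sks2) was low for Med7 over the body in place of 0. Over all genes, counts moved by more than 1.5 times as follows. Pol II bodies, 338 high and 578 low, became 562 and 70 with the other scaling and 524 and 1880 with the 1.5-fold rule, and the low ones became 332 with duplicates collapsed and 919 over coding spans. Pol II promoters, 215 high and 690 low, became 529 and 130 with the other scaling and 354 and 1305 with the 1.5-fold rule, and the low ones 438 with duplicates collapsed. Med7 bodies, 27 high and 32 low, became 108 and 299 with the 1.5-fold rule, 116 and 65 without shared bases, and 157 were low over coding spans. Med7 promoters, 697 high and 13 low, became 1267 and 29 with the 1.5-fold rule, and 36 were low in the narrower window. Depth limits the promoter windows: the 9 members had 14 to 28 control reads there, so even a fold of 1.69 (Med7 at sti1, 0.873 to 3.41) could not be told from 1.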

Other observations

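The letters AGGGTTAGGGTT, the longest stretch shared by the promoters of ssa1, ssa2 and hsp90, stood within 250 bp upstream of 20 protein-coding genes. Their reverse complement holds AACCCT, known as a box upstream of fission yeast histone genes. The body of eft201 was not measured. Of the 19 others, 17 (89.5%) were high for Pol II, against 6.8% of all genes. Without the 3 chaperone genes this was 14 of 16 (87.5%), with a median fold of 2.85. They included the histone genes htb1 at 5.21, hht3 at 4.78, hhf1 at 4.38, hta1 at 3.65, hht2 at 3.60, hht1 at 3.46, hta2 at 2.94, hhf2 at 2.76 and hhf3 at 2.16, several of which are divergent pairs that share a promoter and so are not independent. The others were SPAC27E2.11C at 8.41, the Ran GTPase gene spi1 at 2.68, tif51 (eIF5A) at 2.50, bdf2 at 2.16 and erg1, a sterol synthesis gene, at 2.15. The genes not called were tbp1 (the TATA-binding protein) at 1.65 and ppc89 at 0.633. Of the 20 promoters 4 were high for Med7, and 2 of 17 without the chaperone genes, against 14.1% of all promoters. The number of high bodies lay between 16 and 18 under the alternatives run. This is a description of letters chosen after the promoters had been read, with no test.

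The triple GAA units without regard to AGGGTTAGGGTT gave a different picture. Of 19 measured genes with a triple, 3 were high for Pol II, ssa1, ssa2 and the alcohol dehydrogenase gene adh1 at 12.1, and the median fold was 0.732. Among 831 measured genes with a pair, 63 (7.58%) were high, close to the 6.8% of all genes.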
